A study of Mus musculus with 8 samples.

Results

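The genes described here are 9 genes of megakaryocytes and platelets, Pf4, Ppbp, Itga2b, Gp1ba, Gp1bb, Gp9, Gp6, Vwf and Treml1, chosen by symbol. All 9 were among the 23084 genes of the deposited table, at low to middling levels: their mean signals lay between 9.05 for Gp6 and 147 for Itga2b, beside a median of 46.8 over all listed genes. The summed signal of the 9 genes was 597, or 0.00237% of the signal of all genes.

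RNA-sequencing was performed on myeloid cells sorted from the spleen of C57BL/6 mice of 6 to 8 weeks, to ask how lamin A/C deletion bears on the differentiation of these cells. The 8 samples fell into 4 groups of 2: wt CD11b+Ly6C+, wt CD11b+Ly6G+, Lmna KO CD11b+Ly6C+ and Lmna KO CD11b+Ly6G+ cells. CD11b is a surface integrin of myeloid cells, Ly6C is the usual marker of monocytic cells and Ly6G that of granulocytic cells. The knockout mice, LmnaMyeKO, carry Lmna flox alleles and Cre under the control of LysM, a gene of monocytes, macrophages and granulocytes, so that Lmna is deleted in those cells and the rest of the animal keeps the gene. Whether the wt mice carried flox or Cre alleles, whether a sample pooled animals, and whether the RNA-sequencing mice bore tumors is not given in the sources used here. The cell marker label reads CD11b+Ly6C+ for all 8 samples, so the subset was taken from the sample titles. The sources do not say that the 2 samples of a group came from separate animals.

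The quantity used is the authors' mean signal of each gene, a mean over libraries of the read count divided by a size factor that puts libraries on 1 scale. Its lowest values were whole sums of 8 fixed steps, which gives 8 libraries behind the mean, as many as there are samples: all 1268 values up to 0.406 could be written that way within 3e-09. No source names these libraries, and the mean was read here as that of all samples, both subsets and both genotypes together. The steps gave size factors from 0.796 to 1.05 in 7 libraries and of 1.91 in 1 library, and they name no library. The level of each gene in each genotype or subset, and the check of Lmna in every sample, were not analysed here, and no genotype comparison is given. All differences below are differences between genes in that single mean. In such bulk samples, fewer cells of a type and less RNA per cell cannot be told apart.

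Megakaryocytes are the large polyploid cells of bone marrow, and in the mouse also of spleen, that shed platelets into the blood. Platelets have no nucleus and carry RNA inherited from the megakaryocyte, and they stick readily to monocytes and granulocytes. At a wound, von Willebrand factor binds the GPIb-IX-V receptor and tethers platelets, collagen activates them through GPVI, and the activated integrin alphaIIb-beta3 links them to each other through fibrinogen. Their alpha-granules then release chemokines and adhesion proteins. The 9 genes cover each of these steps.

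Before the values, upstream sequences are shown for 4 of the genes, both chemokine genes and a pair of GPIb-IX genes, because factors of the GATA and ETS families are known regulators of megakaryocyte genes and these windows overlap no annotated exon. RefSeq promoters on GRCm38.p6 were found for 8 of the 9 genes, all but Vwf. Each line holds the 180 bases before the start of transcription on the plus strand, 5′ to 3′, with matches to GATA or GGAA on either strand in capitals (on the other strand they read TATC and TTCC, and neighbouring matches run together). The windows are chr5:90768338-90768517 for Ppbp, chr5:90772255-90772434 for Pf4, chr11:70638942-70639121 for Gp1ba and chr6:87777890-87778069 for Gp9.
Ppbp: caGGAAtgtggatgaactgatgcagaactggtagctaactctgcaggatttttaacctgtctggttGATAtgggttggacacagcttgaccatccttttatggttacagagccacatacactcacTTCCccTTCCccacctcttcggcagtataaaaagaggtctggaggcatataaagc
Pf4: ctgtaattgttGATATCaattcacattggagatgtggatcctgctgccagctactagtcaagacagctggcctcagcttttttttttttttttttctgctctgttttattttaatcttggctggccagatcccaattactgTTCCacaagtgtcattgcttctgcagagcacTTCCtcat
Gp1ba: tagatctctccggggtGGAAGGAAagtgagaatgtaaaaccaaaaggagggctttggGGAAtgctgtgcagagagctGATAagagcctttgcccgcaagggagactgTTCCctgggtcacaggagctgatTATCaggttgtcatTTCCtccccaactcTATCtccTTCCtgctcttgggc
Gp9: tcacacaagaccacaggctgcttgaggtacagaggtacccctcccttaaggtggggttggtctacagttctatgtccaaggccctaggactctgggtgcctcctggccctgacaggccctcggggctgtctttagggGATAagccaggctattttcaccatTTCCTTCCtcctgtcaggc
In the 250 bases before the start, 7 of the 8 genes held GATA on either strand, beside 53.6% of all 32851 promoters, and all 8 held GGAA, beside 93.4%. Gp1ba held 3 matches to GATA and 6 to GGAA, whereas Itga2b held 0 to GATA and 6 to GGAA. Such short words occur in most promoters, and a match describes the letters only.

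The alpha-granule chemokines had the highest levels. To compare genes of unlike length, the mean signal was divided by the length of the merged exons in kilobases. The 95% counting interval that follows each level covers read counting only, not the spread between libraries. It takes the upper limit of the counting error, so levels said not to differ beyond counting error may still differ at a smaller error. Ppbp, which encodes the precursor of the neutrophil-attracting chemokine CXCL7, had a mean signal of 110 and a level of 101 per kilobase (interval, 94.1 to 109). This rests on 700 to 1680 estimated reads over the 8 libraries, and 70.1% of genes had a lower level. Pf4, platelet factor 4 or CXCL4, a heparin-binding chemokine, had a mean signal of 39.2 and a level of 54.4 per kilobase (48.1 to 61.6), above 62.0% of genes. The level of Ppbp was 1.86 times that of Pf4 (1.61 to 2.15), a difference larger than the counting error. Both genes have 3 exons and lie on the plus strand of chromosome 5 on GRCm38, Ppbp at chr5:90768518-90770063 and Pf4 at chr5:90772435-90773383, with 2371 bases between them.

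**Figure D1:**
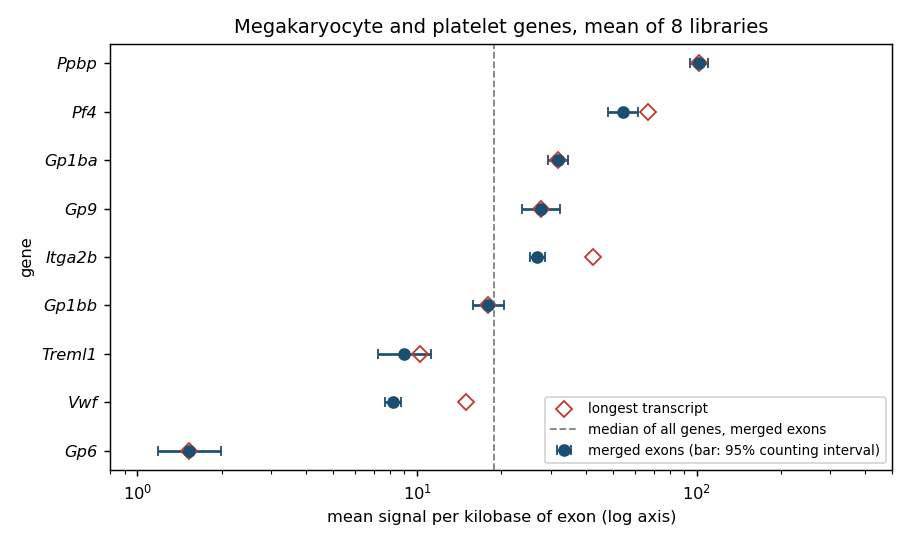
Mean signal per kilobase of exon (x axis, log scale) of the 9 genes (y axis), with filled points for merged exons, bars for the 95% counting interval and open diamonds for the longest transcript. Ppbp stands highest at 101 and Gp6 lowest at 1.53, and the diamonds of Pf4, Itga2b and Vwf lie outside their bars; the dashed line is the median of all genes, 18.8.

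The receptor for von Willebrand factor, GPIb-IX, is built from the products of Gp1ba, Gp1bb and Gp9. Gp1ba encodes the chain that binds von Willebrand factor, and it had a mean signal of 86.6 and a level of 31.9 per kilobase (29.3 to 34.7) from 2 exons at chr11:70639122-70642036. Gp9, at chr6:87778072-87779768, had a mean signal of 24.4 and a level of 27.7 per kilobase (23.6 to 32.4). The ratio of Gp1ba to Gp9 was 1.15 (0.964 to 1.38), so the levels of these partners could not be told apart at the upper limit of the counting error. Gp1bb encodes the chain linked to the Gp1ba product by disulfide bonds, and it had a mean signal of 37.4 and a level of 17.9 per kilobase (15.8 to 20.4). The Gp1bb level is uncertain, since 1938 of the 2087 bases of its single exon at chr16:18620317-18622403 are shared with exons of Sept5 and Gm49601, and Sept5, a septin gene read from the same strand, stood at 808 per kilobase. Gp5, whose product joins the complex as GPV, stood lower at 9.60 per kilobase, and the ratio of Gp1ba to Gp5 was 3.32 (2.75 to 4.01).

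Itga2b encodes integrin alphaIIb, the alpha chain of the fibrinogen receptor and also known as CD41. It had the highest mean signal of the 9 genes, 147, from 935 to 2244 estimated reads. Its 28 merged exons at chr11:102453297-102470122 on the minus strand span 5454 bases, and its level was 26.9 per kilobase (25.2 to 28.7), above 53.6% of genes. Gp9 stood at 1.03 times this level (0.868 to 1.22), not beyond counting error, but with each gene's longest transcript in place of merged exons the ratio turned to 0.648 (0.547 to 0.769). Itgb3 encodes the partner chain beta3, which other integrins of other cells also use, and its level of 378 per kilobase was 14.1 times that of Itga2b (13.2 to 15.0), or 9.04 times with the longest transcript (8.46 to 9.66). The fibrinogen receptor chains thus stood further apart than the GPIb-IX chains did.

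Treml1 and Vwf were lower. Treml1 encodes TLT-1, a receptor of the alpha-granule membrane, with a mean signal of 12.6 and a level of 9.003 per kilobase (7.24 to 11.2) from 5 merged exons at chr17:48359916-48367176. Vwf encodes von Willebrand factor, which endothelial cells also make, and it had the second highest mean signal, 132. Spread over the 16064 merged bases of its 56 exons at chr6:125546774-125686679, this gave 8.19 per kilobase (7.65 to 8.76), above 41.7% of genes. Treml1 stood at 1.10 times the level of Vwf (0.874 to 1.38), not beyond counting error, but at 0.686 times with the longest transcript (0.546 to 0.863). Cdh5, an endothelial cadherin gene, stood at 7.20 per kilobase, and the ratio of Vwf to Cdh5 was 1.14 (0.973 to 1.33), but 1.97 (1.68 to 2.30) with the longest transcript.

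Gp6, which encodes the collagen receptor GPVI, was lowest. Its mean signal of 9.05 rests on 58 to 138 estimated reads over the 8 libraries, with a counting error of up to 13.2% of the value. Its level was 1.53 per kilobase (1.19 to 1.99), above 23.6% of genes, and Vwf, the next gene up, stood at 5.34 times that level (4.09 to 6.97). With the longest transcript the ratio of Vwf to Gp6 was 9.71 (7.44 to 12.7), and Treml1, at 10.2 per kilobase, was the next gene up. Clec1b, which encodes the other main activating receptor of this kind on platelets, CLEC-2, stood at 78.1 per kilobase, 50.9 times Gp6 (39.2 to 66.1). Which cells gave the reads of Clec1b or Gp6 was not tested, so this ratio is not one within platelets. The range over the 9 genes was 66.1-fold from Gp6 to Ppbp (50.5 to 86.4).

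Of the 8 pairs of neighbours in the order from Ppbp to Gp6, 5 differed beyond counting error and 3 did not. The 3 were Gp1ba and Gp9, Gp9 and Itga2b, and Treml1 and Vwf. Among the 5, Itga2b and Gp1bb, and Gp1bb and Treml1, rest on the uncertain Gp1bb level. The counting interval does not cover the assignment of reads in exons shared with other genes. The order depends on the exon length used: with the longest transcript, Itga2b rose to 42.7 per kilobase and passed Gp1ba and Gp9, and Vwf rose to 14.9 and passed Treml1. Of the 3 pairs that did not differ beyond counting error, Gp1ba and Gp9 alone did not with that length either. The median of the 9 levels was 26.9 per kilobase, and 5 of the 9 genes stood above the median gene, 18.8. None was among the top 10% of genes.

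**Figure D2:**
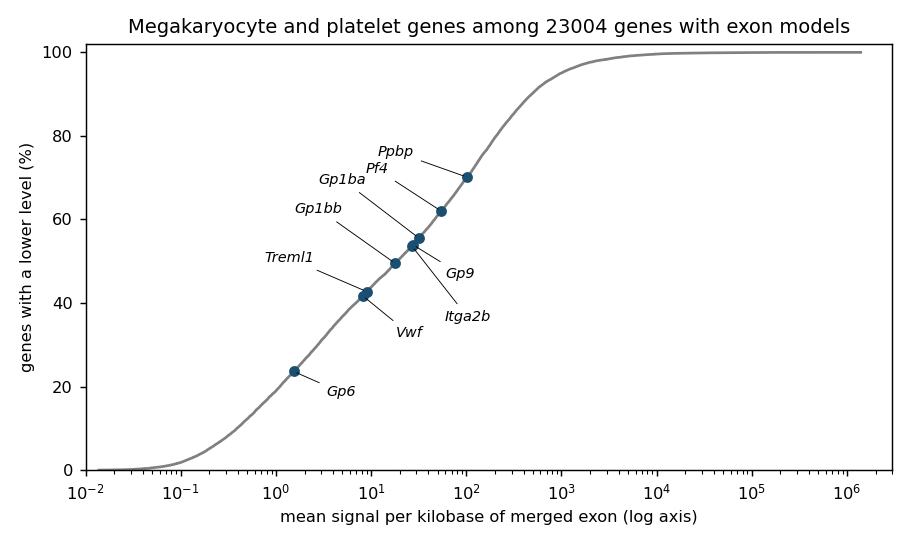
Share of the 23004 genes with exon models that have a lower level (y axis, percent) against mean signal per kilobase of merged exon (x axis, log scale), as a grey curve with the 9 genes as points. The points run from 23.6% for Gp6 to 70.1% for Ppbp, on the middle stretch of the curve.

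Other genes of platelets and megakaryocytes spread over wider ranges than the 9 genes. Among 16 further platelet surface receptors the median level was 53.5 per kilobase, and 5 stood above Ppbp. The highest 5 were Cd9, a tetraspanin, at 3216, Cd84 at 1438, Itgb3 at 378, the prostacyclin receptor Ptgir at 330 and the ADP receptor P2ry12 at 188. The lowest 5 were the adhesion molecule gene Esam at 12.8, Gp5 at 9.60, the thrombin receptor F2rl3 at 8.75, the collagen integrin chain Itga2 at 3.78 and the inhibitory receptor G6b at 2.43. Cd9, Cd84 and Itgb3 are expressed by many leukocytes, whereas G6b and Gp5 are largely restricted to megakaryocytes and platelets.

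Genes of granule cargo and secretion had a median of 559 per kilobase, and 9 of 15 stood above Ppbp. The proteoglycan gene Srgn, at 8748, Nbeal2, needed for alpha-granules, at 1785, Thbs1, which encodes thrombospondin, at 1574, and the secretion genes Stxbp2 at 1527 and Vamp8 at 1300 led the list. At its foot were Sparc at 14.3, Clu at 13.2, Serpine2 at 9.36, Mmrn1, which encodes the alpha-granule protein multimerin, at 3.15, and Rab27b, a dense-granule gene, at 1.20. Rab27b stood below Gp6 by merged exons, but their counting intervals overlapped (0.966 to 1.49 beside 1.19 to 1.99). With the longest transcript Rab27b stood above Gp6, at 1.86 beside 1.53. Counting errors of up to 11.1% for Rab27b and 13.2% for Gp6 apply to both lengths, so their order is uncertain. Myeloid cells also secrete granules, and Srgn, Stxbp2 and Vamp8 are known to act there.

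Of 14 genes of platelet enzymes and cytoskeleton, 7 stood above Ppbp and the median was 93.1 per kilobase. Plek at 3979, Fermt3, which encodes the integrin activator kindlin-3, at 1236, Rgs18 at 1004, the cyclooxygenase gene Ptgs1 at 537 and Rasgrp2 at 529 were highest. The lowest 5 were Gng11 at 24.2, Myl9 at 19.0, the platelet lipoxygenase gene Alox12 at 7.83, Sdpr at 7.60 and Mylk at 3.76. Tubb1, which encodes the platelet-specific beta1-tubulin, stood at 28.6, and its ratio to Itga2b was 1.06 (0.927 to 1.22), but 0.671 (0.584 to 0.770) with the longest transcript.

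All 10 megakaryocyte transcription factors were listed, with a median of 53.6 per kilobase. Nfe2 at 2529, Fli1 at 663, Mef2c at 122, Runx1 at 98.6 and the GATA1 cofactor gene Zfpm1 at 78.2 were highest. Tal1 stood at 29.0, Gata1 at 19.2, Gfi1b at 17.4, Gata2 at 11.1 and Meis1 at 3.42. Gata1 and Gfi1b, which also serve erythroid cells, stood at levels between those of Itga2b and Treml1, whereas Fli1, Runx1 and Mef2c are used by many leukocytes. Which cells gave the reads of these factors, Nfe2 included, was not tested. No listed gene of these 4 lists had a mean signal under 1.

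**Figure D3:**
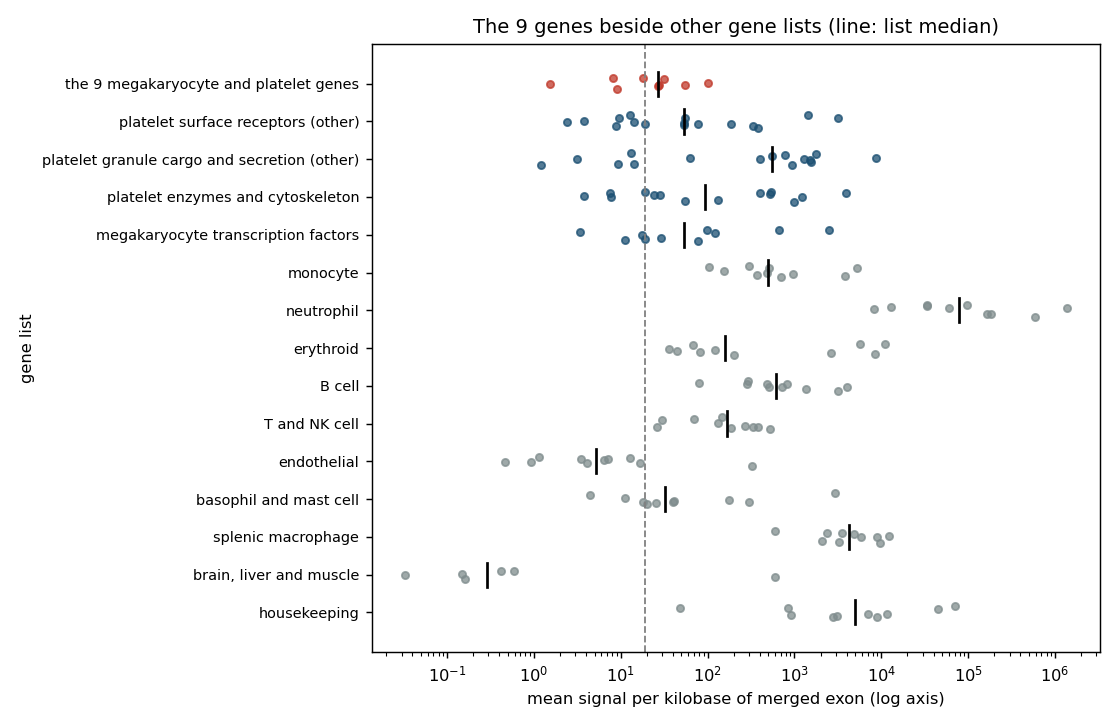
Mean signal per kilobase of merged exon (x axis, log scale) for each gene of the lists (y axis), with a black line at each list's median, a dashed line at the median of all genes, red for the 9 genes, blue for other platelet and megakaryocyte genes and grey for other lists. The red points lie between 1.53 and 101, below every monocyte, neutrophil and splenic macrophage gene, and 9 of the 10 endothelial genes lie left of the dashed line.

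The 9 genes stood low beside the markers of the sorted cells. All 10 neutrophil genes and all 10 monocyte genes were above Ppbp, with medians of 78217 and 497 per kilobase. The lowest monocyte gene stood at 105 per kilobase (101 to 110), an interval that overlapped that of Ppbp. The highest genes were S100a9, a calcium-binding alarmin gene, at 1389950 and Ly6c2, which encodes Ly6C, at 5260. Genes listed here as markers of other cells that spleen holds also had signal. Which cells gave their reads, the sorted cells or others, was not tested. All 10 splenic macrophage genes stood above Ppbp, led by the heme oxygenase gene Hmox1 at 12182, as did 9 of 10 B cell genes, led by Cd79a at 4065, 7 of 10 T and NK cell genes, led by Nkg7 at 519, and 6 of 10 erythroid genes, led by the globin gene Hbb-bs at 11172. Of 10 basophil and mast cell genes, 3 stood above Ppbp, led by Hdc at 2920, and the median of that list was 32.8. Hdc alone made 18657 of the summed signal of 19922 of that list. All counts of genes above Ppbp are by merged exons. With the longest transcript, a further gene of each of the B cell, T and NK cell and platelet enzyme lists also stood above Ppbp. Runx1 of the transcription factor list did so too, at 202 per kilobase beside 98.6 by merged exons.

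The endothelial list was the only one of the 8 other cell type lists whose median, 5.25 per kilobase, was below that of the 9 genes. Its highest gene was Pecam1 at 323, which platelets and leukocytes express too, and its other 9 genes ranged from 0.463 to 16.6. By summed signal, the 9 genes came last of the 9 cell type lists, at 597 beside 2200 for the endothelial list, of which Pecam1 made 2010. These are descriptions of a single mean over both subsets and genotypes, and the part of any other cell type in the level of the 9 genes was not tested.

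As a gauge of the lowest levels in the table, 12 genes of brain, liver and muscle were looked up. Of these, 6 were listed, all of brain or muscle, and none of the liver genes was. The gauge thus covers listed genes only. Mbp, whose locus is also transcribed in blood cells, stood at 594 per kilobase, and the other 5 lay between 0.0330 for Syt1 and 0.589 for Gfap. Each of the 9 genes was above these 5, Gp6 included. Among housekeeping genes the highest was Actb at 69844 per kilobase, and all 9 genes stood under 1% of that level.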

How the data were processed

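Per the labels and the study's methods, reads were trimmed with cutadapt 1.14, mapped to mm10 with STAR 2.5.2b and quantified with RSEM 1.3.0 and GENCODE M12, and the authors used DESeq2 1.20.0. The deposited table holds, for each of 23084 genes, a mean signal by the authors (counts divided by size factors and averaged over libraries, not divided by length). It also holds 6 columns of the authors' comparison of genotypes (fold change, standard error, statistic, p-values), which were not used.

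The number of libraries in the mean and their size factors were solved from the lowest values, and the step was tested on simulated data. Exon lengths came from GENCODE M21 on GRCm38, which held 23004 of the identifiers. Merged exons gave the main level per kilobase and the longest transcript an alternative. The sum of a gene's reads lies between its mean signal divided by the largest and by the smallest step, and the counting error printed is an upper limit, without molecular identifiers and for counting error only. Depth per sample is unknown from the table, and the study's methods give only a range of reads over its samples. For 28 symbols on more than 1 row, the row with the higher signal was kept. No test between groups was made. Every one of the 9 genes was named. Of the platelet and megakaryocyte lists, up to 5 genes with the highest and 5 with the lowest level per kilobase and any with a mean signal under 1 were named, and of other lists the highest gene; a few others (Tubb1, Cdh5, Sept5, Mbp, Syt1, Gfap) were named after their values were seen. In the lists, 3 names were second names of listed genes, and Esam and Gata2 each stand in 2 lists. A gene of the surface receptor list is not reported here and was left out of its counts. The 9 genes and the lists were chosen with earlier results of these data known. Python 3.11.15 was used with numpy 2.4.6, pandas 2.3.3 and scipy 1.17.1.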

Additional observations from a re-analysis of the deposited data

How the results depend on the processing

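The median level of the 9 genes was 26.9 per kilobase of merged exon and 27.7 per kilobase of longest transcript, and 5 of the 9 stood above the median gene with either length, 4 without division by length. The median of their percentiles was 53.6 among all genes, 38.9 among protein-coding genes and 25.5 among genes with a mean signal of at least 10, since these alternatives leave out low genes. Their share of the summed signal was 0.00237%, 0.00267% without the 10 highest genes in the total and 0.00179% without Itga2b. The longest transcript moved 3 of the 9 levels beyond their counting interval. By median level in place of summed signal, the 9 genes came eighth of 9 cell type lists. Levels per library, their scaling by total counts and the mean without each library were not run, because the reads of a gene in each library could not be solved uniquely from the mean, so how far the library with a size factor of 1.91, or any other, sets a level is unknown. The count tests of genotype and their alternatives were not run, because the values used are means over all samples. No paired analysis was possible because those means carry no replicate numbers. Genes as low as Gp6 rest on 58 to 138 estimated reads, and the spread between libraries was not measurable for any gene.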
